A study of Mus musculus with 3 samples.

Results

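The regions described here are 10 kb windows of the mouse genome that carried Ptbp2 HITS-CLIP reads on both strands. Reads on the 19 autosomes were assigned to fixed windows by their midpoints, and a window was kept when each strand held 10 or more reads. Of 144271 autosomal windows with a read, 1326 met this rule. A window needs 20 reads to meet it, and 24316 windows had that many, so 5.45% of the windows that could pass did so. Without the green class 238 windows met the rule, and without the red class 697. The 1326 windows held 74660 reads, or 4.39% of the autosomal reads. The windows were chosen by their read counts per strand, which are therefore given as a description. The position of the reads inside the windows, and the reads of the neighbouring windows, were not used in the choice.

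The libraries came from the testes of 3 adult male CD1 mice aged 8 weeks, 1 library per animal, all in 1 group without a control, input or mutant. The file lists 1727697 reads in 3 display colours, of which 952096 were green, 493620 red and 281981 blue. The colour classes were taken as the 3 libraries. Which colour belongs to which animal is not given in the labels, so each class is given singly with no SD. With a single group there is no comparison between conditions and no p-value. Intervals are 95% Wilson intervals and cover counting error only, since neighbouring windows and reads copied from 1 molecule are not independent.

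Ptbp2 is an RNA-binding protein of the polypyrimidine tract-binding family that binds pyrimidine-rich RNA, often in introns near regulated exons, and controls alternative splicing in neurons and male germ cells. HITS-CLIP crosslinks RNA to the protein with ultraviolet light and sequences the recovered fragments. It keeps the strand of the RNA, because sequencing starts at the linker joined to the 5′ end of the fragment. Reads on opposite strands of a short stretch of genome are taken here as transcripts that run in opposite directions, though no transcript was assigned to them. Such transcripts may start near each other and run apart, as from a bidirectional promoter, run towards each other so that their 3′ ends lie close, or share the same stretch. In adult testis many long non-coding transcripts, among them precursors of pachytene piRNAs, are made in divergent pairs. All positions are in mm9, counted from 1. Genes and sequences at these positions were not analysed here, so windows are named by position.

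Most windows on the autosomes were read on 1 strand. Among the 22990 windows with 20 or more reads that did not meet the rule, 70.2% (69.6 to 70.8) had no read on the less covered strand. In the both-strand windows the less covered strand held a median of 14 reads (quartiles 11 and 18, highest 135) and the other strand a median of 28 reads (quartiles 18 and 44, highest 1974). The less covered strand made up a median of 36.7% of the reads in a window. It reached 40% or more in 530 windows and stayed under 10% in 38. At the edge of the rule, 222 windows had 10 reads on their less covered strand and 304 windows had 9.

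**Figure D1:**
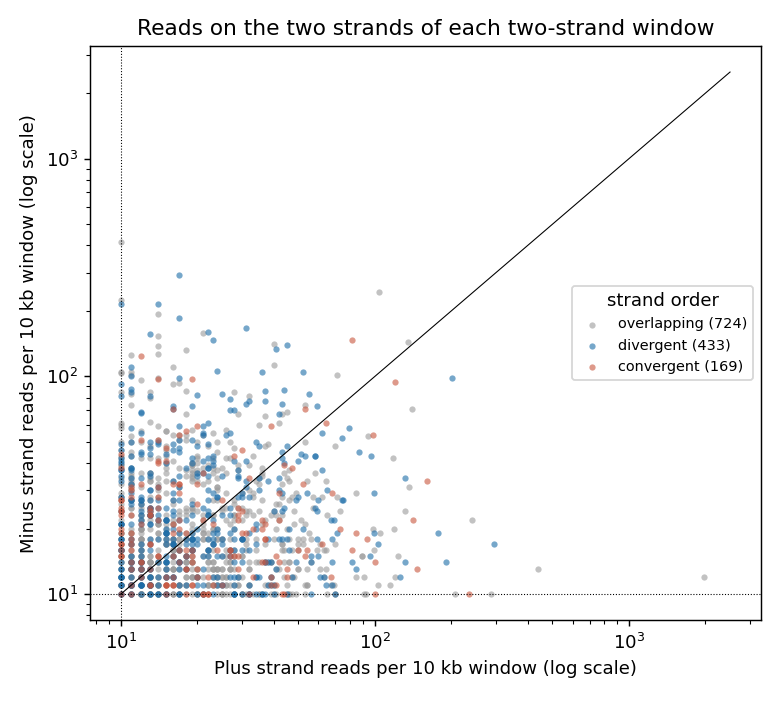
Plus strand reads (horizontal axis, log scale) against minus strand reads (vertical axis, log scale) in the 1326 both-strand windows, 1 point per window, coloured by strand order; dotted lines mark the rule of 10 reads and the solid line equal counts. Points of all 3 orders lie on both sides of the line of equal counts, and 1 window stands far to the right with 1974 plus and 12 minus reads.

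The windows were spread over many separate places. Neighbouring both-strand windows joined into 1151 loci, of which 1022 were single windows, 95 held 2 windows and 34 held 3 to 5. The share of windows with 20 or more reads that met the rule ran from 3.40% (2.43 to 4.73) on chromosome 13 to 6.66% (5.48 to 8.08) on chromosome 9. It was lower in the shallowest windows, going from 2.92% of windows with 20 to 29 reads to 8.08% (7.36 to 8.86) of those with 50 to 99 reads, and was 7.51% (6.22 to 9.05) at 100 to 199 reads and 9.81% (6.51 to 14.5) at 200 or more. The intervals of the last 3 groups overlap. A shallow window needs a larger part of its reads on the less covered strand to reach 10, so this rise follows in part from the rule. The classes made similar parts of the reads in both-strand windows and of all autosomal reads, which include them. Green reads were 55.7% (55.4 to 56.1) of the reads in both-strand windows and 55.2% of all autosomal reads. Red reads were 27.6% and 28.5%, and blue reads 16.7% and 16.3%. All 3 classes had reads on both strands in 1058 of the 1326 windows, and a strand with reads of 1 class only was found in 4. The median read length was 47 nt inside and 46 nt in the other windows with 20 or more reads.

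The order of the strands was read from the middle 80% of the reads on each strand, from the 10th to the 90th percentile of their midpoints. A window was called divergent when the minus range lay wholly to the left of the plus range, as for transcripts that run apart. It was called convergent when the plus range lay wholly to the left, as for transcripts that run towards each other. All other windows were called overlapping. There were 433 divergent windows, 32.7% of the total (30.2 to 35.2), 169 convergent windows, 12.7% (11.1 to 14.6), and 724 overlapping windows, 54.6% (51.9 to 57.3). Where the strands lay apart, divergent windows thus made 71.9% (68.2 to 75.4), or 2.56 divergent windows for each convergent one. The shares depended on the bounds. With the full span of the reads they were 18.9% divergent and 3.70% convergent, and with the 25th to 75th percentile 42.1% and 24.1%. Windows with 10 reads on the less covered strand were 27.0% divergent and 12.6% convergent, and those with 9 reads were 33.6% and 6.58%. With 20 or more reads on each strand, 39.5% of 286 windows were divergent and 11.5% convergent.

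A second measure, the position score, gave the share of all pairs of a plus and a minus read in which the plus read lay to the right. It is 1 where the strands are fully divergent and 0 where they are fully convergent. The score was 0.9 or more in 451 windows and 0.1 or less in 192. The other 683 windows were spread between these ends.

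**Figure D2:**
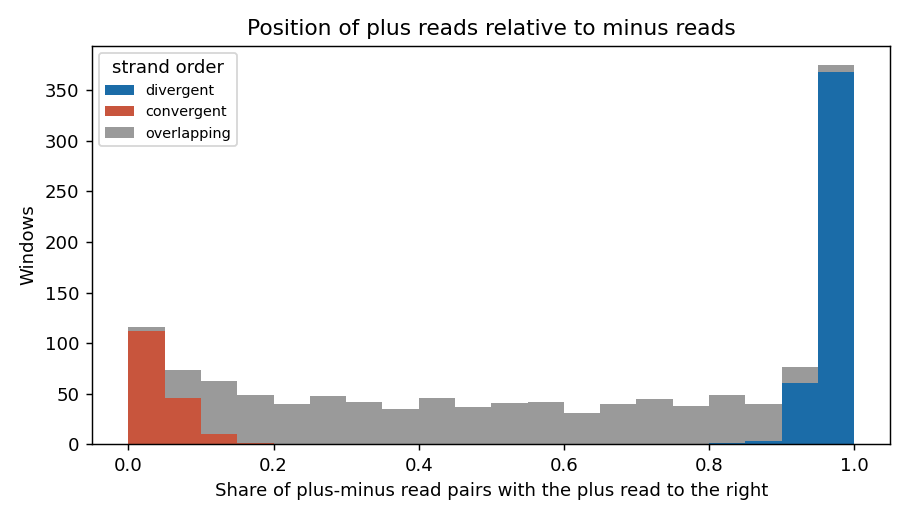
Number of both-strand windows (vertical axis) by position score (horizontal axis, share of plus and minus read pairs with the plus read to the right), stacked by strand order. Windows pile up at both ends, with 451 windows at 0.9 or more, mostly divergent, and 192 at 0.1 or less, mostly convergent.

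Distances between the strands cannot exceed the 10 kb window, so in all orders they depend in part on its size. In divergent windows the medians of the strands were 4576 nt apart (quartiles 3556 and 5749). The empty stretch between the middle 80% of the reads of each strand had a median of 1587 nt, with 114 windows under 1000 nt and 274 under 2000 nt. No read of either strand crossed the other in 246 of the 433 windows. The nearest reads of opposite strand were a median of 334 nt apart (quartiles 60 and 878).

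Convergent windows had a similar distance between the strands, and opposite reads came closer to each other. The strand medians were 4459 nt apart and the gap between the ranges had a median of 1567 nt, with 61 of 169 windows under 1000 nt. The strands were fully apart in 48 windows, which was 28.4% (22.1 to 35.6) against 56.8% (52.1 to 61.4) of the divergent windows. The nearest opposite reads were a median of 160 nt apart. Bases covered by reads of both strands were found in 26.6% (20.5 to 33.8) of convergent and 16.6% (13.4 to 20.4) of divergent windows. The median depth was 43 reads in convergent and 46 reads in divergent windows.

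In overlapping windows the ranges shared a median of 3491 nt. The range of 1 strand lay inside that of the other in 315 of the 724 windows. In 189 the ranges were staggered with plus to the right and in 220 with plus to the left. The strand medians were 2643 nt apart, and the lowest distance in any window was 2.25 nt.

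The reads of the neighbouring windows, which the rule did not use, lay mostly on the sides given by the order. The order places each strand towards 1 side of the window, so a transcript that crosses this edge adds reads to that neighbour. The other windows given for comparison were not sorted by read position. Part of the difference therefore follows from the order call and is no separate support for it. Downstream is used here for the neighbour towards which a strand is transcribed, which is the right one for plus and the left one for minus. In divergent windows the plus strand had a median of 22 reads in its downstream neighbour and 0 in its upstream neighbour. The minus strand had 19 and 0. The plus strand had more reads downstream in 373 of 433 windows, 86.1% (82.6 to 89.1), and the minus strand in 374. In the 22990 other windows with 20 or more reads, the main strand had more reads downstream in 48.0% and a median of 21 reads on either side. The plus strand of convergent windows had a median of 18 reads upstream and 1 downstream, and the minus strand 14 and 1. More reads upstream than downstream were found for the plus strand in 138 of 169 windows, 81.7% (75.1 to 86.8), and for the minus strand in 129, against 49.5% in the other windows.

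The same held at a distance that always lies outside the window. Between 10 and 20 kb from the border of divergent windows, the middle of the gap between the ranges, the plus strand had more reads on its own side in 339 windows and on the far side in 58. For the minus strand these numbers were 329 and 57. In convergent windows the plus strand had more reads on its own side in 121 and on the far side in 30, and the minus strand in 110 and 42. Within 20 kb of a divergent border, 91.5% of plus reads and 92.5% of minus reads lay on their own side, as a mean over windows. For convergent borders these shares were 85.7% and 83.5%. The 20 kb shares include the reads of the window itself, whose sides were largely fixed by the order call. They are therefore no separate support for the order.

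**Figure D3:**
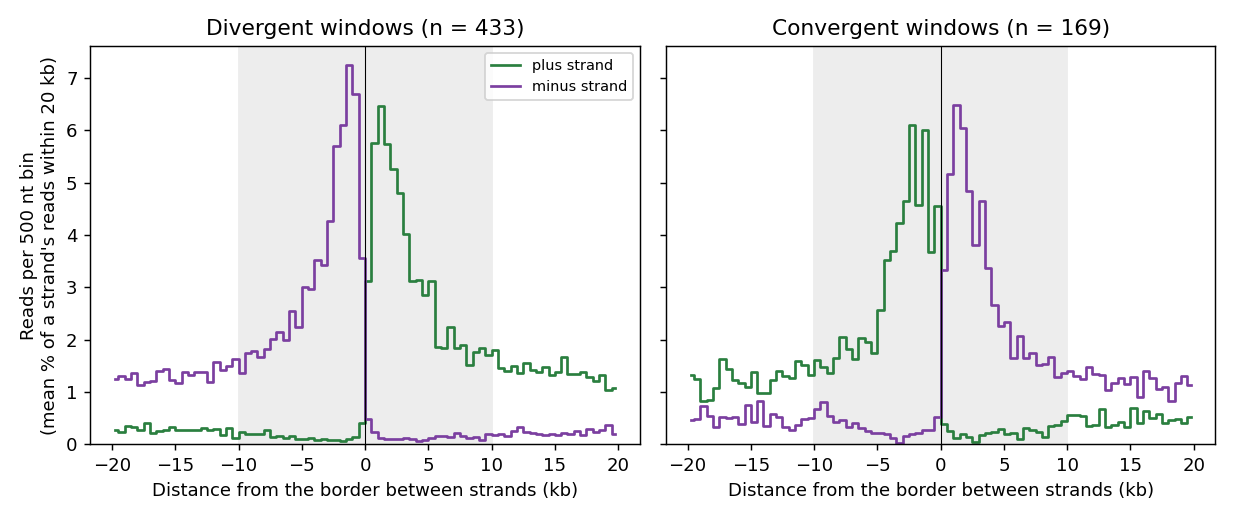
Mean share of a strand's reads within 20 kb (vertical axis, percent per 500 nt bin) by distance from the border between the strands (horizontal axis, kb, left to right along the genome), for 433 divergent and 169 convergent windows; grey marks the 10 kb on each side within which the window lies. In divergent windows minus reads fill the left and plus reads the right, with the fullest bin 1250 nt from the border at 7.25% of minus and 6.46% of plus reads, and in convergent windows the sides are exchanged.

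Read density was highest within a few kb of the border in both orders. In divergent windows plus reads made 8.87% of the strand's reads in the first kb, 12.2% in the next and 7.73% per kb from 2 to 5 kb, and 2.77% per kb from 10 to 20 kb. Minus reads of the same windows gave 10.2%, 13.4%, 7.62% and 2.67%. The plus reads of convergent windows gave 8.22%, 10.6%, 8.25% and 2.49% at these distances. The ranges that set the border lie inside the window, so the peak within 10 kb follows in part from the choice of windows.

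Sorting the windows by their neighbours instead of by order gave a smaller difference between the directions. Both strands had more reads downstream than upstream, the pattern of transcripts that run apart, in 521 windows, 39.3% (36.7 to 41.9). Both had more upstream, the pattern of transcripts that meet, in 361, 27.2% (24.9 to 29.7). Of the 521, 332 were called divergent and 175 overlapping, and of the 361, 114 were convergent and 235 overlapping. Overlap of the ranges was thus found in 65.1% (60.0 to 69.8) of windows with the meeting pattern and in 33.6% (29.7 to 37.8) of those with the pattern of running apart. Bases read on both strands were found in 46.3% (41.2 to 51.4) and 28.0% (24.3 to 32.0).

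Bases covered by reads of both strands were found in 517 of the 1326 windows, 39.0% (36.4 to 41.6). These windows had a median of 42 such bases, with 100 or more bases in 66 windows. Of the 1891850 bases covered in the 1326 windows, 29819 (1.58%) were covered on both strands. What share sparse coverage alone would give was not tested. Of the reads, 4.69% (4.54 to 4.85) overlapped a read of the other strand. Only 12 pairs of opposite reads had the same start and the same end, in 12 windows. The longest stretch read on both strands in any window was 96 nt.

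The window with most reads on its less covered strand was on chromosome 13, from 53510001 to 53520000, with 135 plus and 144 minus reads. Red had 44 plus and 53 minus reads, green 72 and 64, and blue 19 and 27, so plus reads were the more numerous in green alone. Its position score was 0.79 over all reads, 0.79 in red, 0.75 in green and 0.88 in blue, and the ranges overlapped. It also had the most bases read on both strands, 653, where 31 plus and 64 minus reads faced each other. The window to its left was a both-strand window too, with 118 plus and 42 minus reads, and the window to its right had 103 plus reads and 0 minus reads. Plus reads were thus present in all 3 windows and minus reads in the first 2.

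The overlapping window on chromosome 16, from 10790001 to 10800000, had 104 plus and 245 minus reads. Minus reads stood in tall groups, with 4 clusters and a summit of 30 reads. A cluster is a run of overlapping reads of 1 strand with 10 or more reads at the summit and all 3 classes. Plus reads there were spread along the window, with a summit of 7 reads and no cluster. In the overlapping window on chromosome 7 from 51490001 to 51500000, 51 of 102 minus reads overlapped at 1 summit, and the 71 plus reads reached a summit of 7.

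The window on chromosome 2 from 92380001 to 92390000 had 140 plus and 71 minus reads and a position score of 0.96. Its ranges overlapped by 319.5 nt, so it was called overlapping, close to the limit of divergent. Its neighbours carried 644 minus reads on the left and 191 plus reads on the right, against 0 plus reads on the left and 1 minus read on the right.

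The divergent window with most reads on its less covered strand was on chromosome 5, from 150630001 to 150640000. Its 98 minus reads ended at 150633368 and its 202 plus reads began at 150633419, so 50 bases lay between them and no read crossed. Coverage was only 1 read on each side of these 50 bases, and the gap between the ranges was 3339 nt. Red had 8 minus and 57 plus reads, green 75 and 108, and blue 15 and 37, and the position score was 1 in each class. The minus reads stood mainly in 1 narrow group, with 77 of them at its summit. The highest plus summit had 61 reads, and plus reads were spread over 2587 bases. The nearest clusters of opposite strand were 3544 nt apart. Minus reads went on to the left with 162 reads and plus reads to the right with 40, and the reverse neighbours held 0 reads each.

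On chromosome 7, from 77050001 to 77060000, 73 minus reads ended at 77054462 and 59 plus reads began at 77054756, again with a score of 1 in each class. The minus reads formed no cluster, with a summit of 5 reads, and 189 more minus reads lay in the window to the left. The divergent window on chromosome 12 from 40760001 to 40770000 had 58 minus and 79 plus reads and a score of 0.99. There the plus strand went on with 79 reads to the right, while the minus strand had 2 reads to the left.

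The convergent window with most reads on its less covered strand lay on chromosome 6, from 47730001 to 47740000. Its 120 plus reads covered 328 bases with a summit of 108, and its 94 minus reads covered 138 bases with a summit of 89. These were compact stacks 6275 nt apart. The neighbours held 0 plus reads, and 8 minus reads on the right and 1 on the left, so nearly all reads lay inside the window. Red gave 40 plus and 27 minus reads, green 58 and 37, and blue 22 and 30. The commonest 5′ end held 10 of the plus and 8 of the minus reads.

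The other convergent windows among the 10 were read over longer stretches. On chromosome 17, from 35280001 to 35290000, 81 plus reads in the left part faced 147 minus reads in the right part, with 78 plus reads in the left neighbour and 161 minus reads in the right one. The downstream neighbours held 0 reads of either strand. On chromosome 4, from 133680001 to 133690000, 64 plus reads faced 61 minus reads across a gap of 3199 nt between the ranges, and 13 reads overlapped a read of the other strand.

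**Figure D4:**
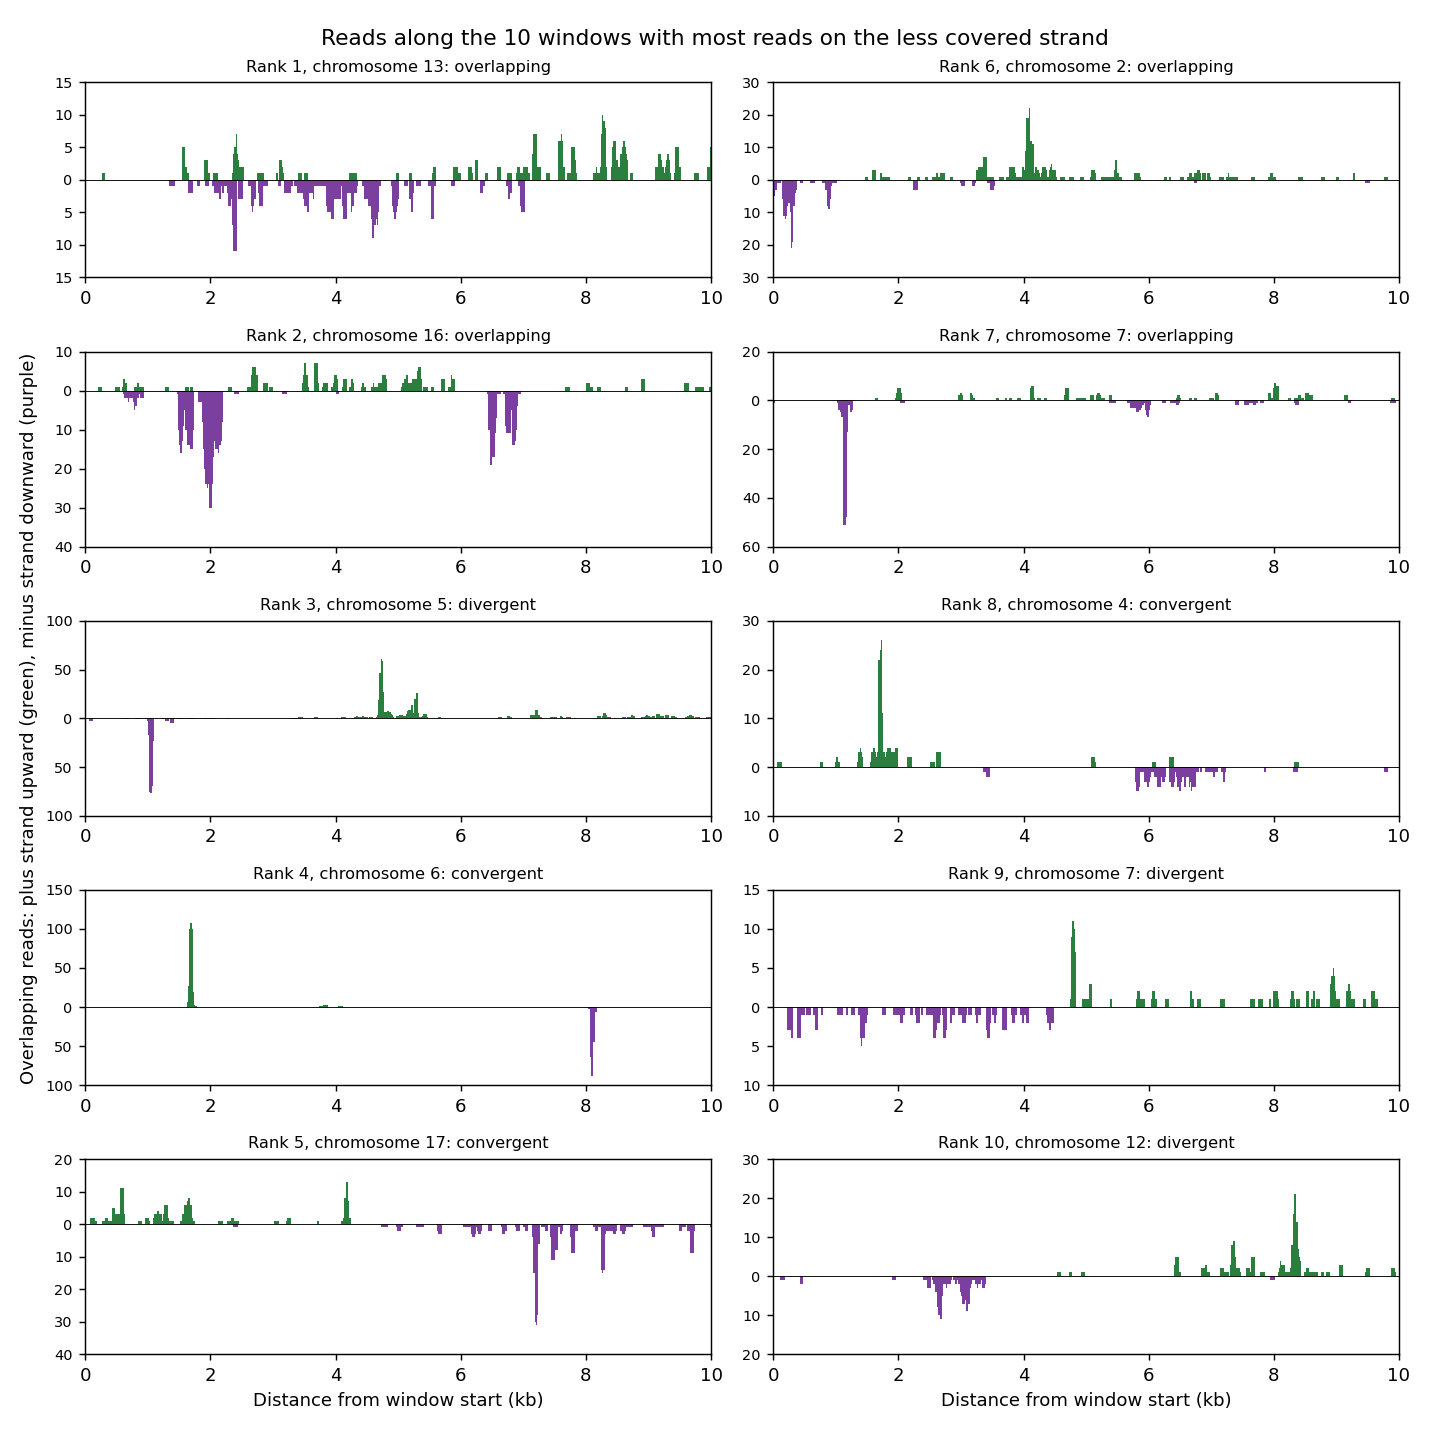
Reads overlapping each position (vertical axis, plus strand upward in green, minus strand downward in purple, highest value per 20 nt) along the 10 windows with most reads on the less covered strand, by distance from the window start (horizontal axis, kb). The chromosome 6 window shows a pair of compact stacks with summits of 108 and 89 reads. The chromosome 5 window shows strands that do not cross, with low coverage beside the break, and the chromosome 13 window reads of both strands side by side.

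Tall sites on both strands of 1 window were uncommon. At least 1 cluster was present in 282 both-strand windows, 21.3% (19.1 to 23.6), and in 18.1% (17.6 to 18.6) of the other windows with 20 or more reads. These groups were not matched for depth. Only 20 to 29 reads were held by 275 of the 1326 both-strand windows and by 9431 of all 24316 windows with 20 or more reads. Both strands held a cluster in 21 windows, 1.58% (1.04 to 2.41), of which 12 were divergent, 3 convergent and 6 overlapping. When reads of 1 class with a common 5′ end were counted once, the number of such windows was 7, and with a summit of 5 reads it was 112. The nearest clusters of opposite strand in these 21 windows were a median of 4901 nt apart, between 1000 and 8397 nt. On chromosome 11 from 68880001 to 68890000, a window chosen after its values were seen, the highest summits were 13 plus and 87 minus reads.

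The strongest imbalance was found in the window on chromosome 17 from 39980001 to 39990000, with 1974 plus and 12 minus reads, 0.604% on the less covered strand. It was chosen after its values were seen, as was the window on chromosome 1 from 26740001 to 26750000 with 439 plus and 13 minus reads. Plus reads covered 5152 bases of the first and 4736 bases of the second, and 11 of the 12 and 10 of the 13 minus reads overlapped a plus read. The 12 minus reads on chromosome 17 were 9 green and 3 blue. The less covered strand held under 10% of the reads in 38 windows. There, 21.1% (17.7 to 24.99) of the reads on that strand overlapped an opposite read, against 6.37% over all 1326 windows. Of the 100 such reads in the 38 windows, 11 came from the chromosome 17 window and 10 from the chromosome 1 window. The 38 windows were picked for a dominant opposite strand and were not matched for the bases it covered. More covered bases make such an overlap more likely, so these shares do not show whether reads of the less covered strand differ. The orders in these 38 windows were 34.2% divergent, 10.5% convergent and 55.3% overlapping.

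The longest loci were 3 runs of 5 both-strand windows. They lay on chromosome 1 from 66760001 to 66810000, with 220 plus and 88 minus reads, on chromosome 1 from 178680001 to 178730000, with 122 and 185 reads, and on chromosome 3 from 94760001 to 94810000, with 96 and 102 reads. Of these 15 windows, 14 were overlapping and 1 divergent. Bases covered by reads of both strands numbered 287 and 202 in the chromosome 1 loci, in this order, and 38 in the chromosome 3 locus.

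The colour classes gave like orders. Among windows with 10 or more reads on each strand in both of a pair of classes, red and green gave the same order in 88.3% of 60 windows (77.8 to 94.2), red and blue in 90.9% of 11 and green and blue in 91.7% of 12. With 5 reads required, these shares were 78.9% of 413, 83.9% of 93 and 82.6% of 132. No window was divergent in 1 class and convergent in another in any of these 6 comparisons. Pearson's r of the position score was 0.91 between red and green over the 413 windows, a correlation across windows of unequal depth and given as a description. Taken alone with 10 reads required, green had 38.6% divergent and 11.4% convergent of 402 windows, red 39.7% and 14.7% of 68, and blue 38.5% and 23.1% of 13, where the interval for convergent ran from 8.18% to 50.3%.

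**Figure D5:**
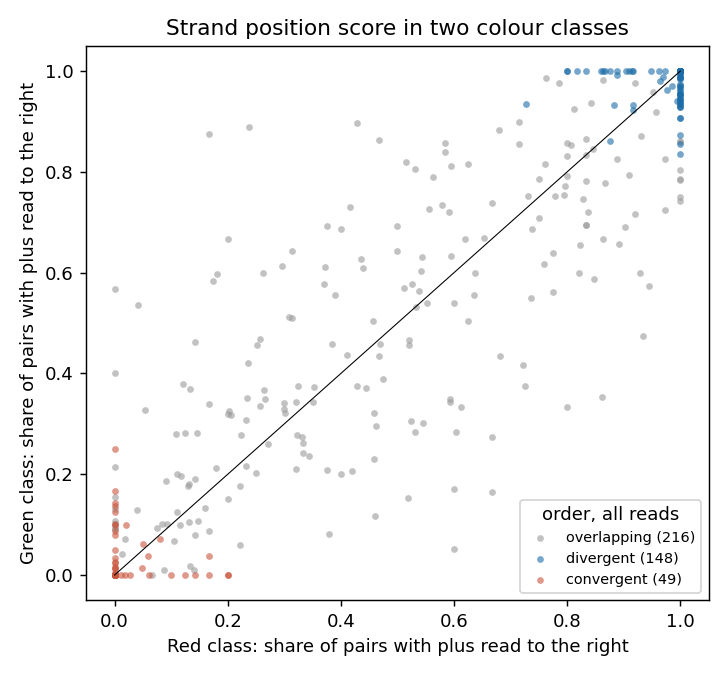
Position score in the red class (horizontal axis) and the green class (vertical axis), each the share of plus and minus read pairs with the plus read to the right, in the 413 windows with 5 or more reads on each strand in both classes; colours give the order from all reads and the line marks equal scores. Convergent windows (49) gather at the lower left and divergent windows (148) at the upper right, and the 216 overlapping windows spread between them.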

How the data were processed

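HITS-CLIP reads of 3 testis libraries were deposited as 1 table with a line per read. Per the labels' protocols, 79 bases were sequenced from the 5′ linker, and the mapper was Bowtie and the build mm9, per the submitters' processing notes. For its version, settings and treatment of multiply mapped reads, nothing is given in the sources used here. The deposited score was 0 on each line and was not used. Identical reads had been collapsed before deposit, which lowers tall sites.

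Windows, strand orders, distances, covered bases and clusters were computed in Python 3.11.15 with numpy 2.4.6 and pandas 2.3.3, and figures were drawn with matplotlib 3.10.9. The order calls were tested on simulated windows with reads placed at random, the strands either well apart or over the whole window. Such windows are simple to call, so the test does not show how the calls fare on stacked reads. Windows are named by rule: the 10 with most reads on the less covered strand, which include the 3 highest of each order. The gene table used here has GRCm38 positions, which were not set against mm9 positions, so genes, marker lists and sequences were not analysed here. The windows and rules were chosen with earlier results of these data known. The alternatives concern the read minimum, the grid, the window size, copies of reads, left-out classes, the bounds of the order and the cluster summit.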

Additional observations from a re-analysis of the deposited data

Results flagged for a closer look

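Outside the autosomes, 4 windows met the same rule and entered no comparison above. They were picked out because reads on both strands appeared in data that the comparisons did not use, at more than the 3 counts that a count of 0 allows. On the mitochondrial chromosome, which is transcribed in full from both strands, the window of the first 10 kb had 927 plus and 11 minus reads and the next had 234 plus and 44 minus reads. On the unplaced sequence of chromosome 1, the window from 300001 had 14 plus and 21 minus reads, and that from 330001 had 12 plus and 20 minus reads. All 4 were overlapping.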

How the results depend on the processing

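Divergent windows outnumbered convergent ones under all 14 alternatives tried for the order, 2 of which, 1 window per locus and at least 20% of reads on the less covered strand, were chosen after seeing the data. The 1326 windows became 4043 with 5 reads on each strand, 286 with 20 reads, 501 with 5 kb windows and 2605 with 20 kb windows. Leaving out 1 class gave 238 to 942 windows, 238 without green, 697 without red and 942 without blue. The divergent share, 32.7%, was 29.95% with 5 reads and 39.5% with 20 reads on each strand, 18.9% with full spans, 42.1% with the 25th to 75th percentile, 35.6% with 1 window per locus, and 34.0% to 38.7% with 1 class left out. The convergent share, 12.7%, was 3.70% with full spans, 24.1% with the 25th to 75th percentile and 13.1% to 13.4% with 1 class left out. The median distance, 3587 nt, was 3434.5 nt with 5 reads and 3748.5 nt with 20 reads, and 3630.1 to 3863 nt with 1 class left out. This distance is bounded by the window and was not measured with other window sizes. The share with bases on both strands, 39.0%, was 28.2% to 35.2% with 1 class left out. Clusters on both strands, found in 21 windows, were found in 7 when a 5′ end was counted once in each class and in 112 with a summit of 5 reads. By construction, wider bounds lower the divergent and convergent shares, and a lower read minimum raises the number of windows. Why shares and distances changed with the read minimum or a left-out class was not tested, nor were other causes. The other 34 of 57 values stayed within their intervals or within 1.5 times the count, the shifted grid among them. No paired analysis was possible because all libraries belong to 1 group. Depth limits what the classes show singly, since blue alone gave 13 windows.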

Other observations

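The X chromosome held 0 both-strand windows among its 110 windows with 20 or more reads, which allows a share of up to 2.73% by the rule of 3 counts of the total, or 3.37% as the upper 95% Wilson limit. The share on the autosomes was 5.45% over all windows with 20 or more reads and 2.92% (2.60 to 3.28) in those with 20 to 29 reads. The X windows were not matched to the autosomal ones by depth, so these values do not show whether the X chromosome differs.

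In 9 of the 2652 strands of the both-strand windows, at least 50% of the reads shared a 5′ end, up to 87.5%. The median strand had 12.5% of its reads on its commonest 5′ end.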
